A study of Mus musculus with 9 samples.

Results

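The Kruppel-like factor (Klf) family was followed as 9 listed genes, Klf2, Klf3, Klf4, Klf5, Klf6, Klf9, Klf10, Klf13 and Klf16, out of 38293 genes in the count table of a mouse embryonic stem cell line. They are 9 of the 17 Klf genes in the table, and they were chosen with earlier results of these data known. RNA-seq had been run on the E14 line of the 129/Ola strain in 3 states, with 3 libraries per state that the labels number as biological replicates. The naive state, mESC-2i, was grown without serum in N2B27 with leukaemia inhibitory factor (LIF) at 10 ng/mL. Its medium also held 1 μM of the MEK inhibitor PD0325901 and 3 μM of the GSK3 inhibitor CHIR99021. The titles of the mESC-2i libraries carry a tag, LT, that the titles do not explain and that the other states lack. The serum state, mESC-ser, was grown in 15% foetal bovine serum with LIF at 10 ng/mL, and had neither inhibitor. The epiblast-like cells, EpiLC, were made from naive cells plated on human fibronectin in N2B27 with activin A at 20 ng/mL, bFGF at 12 ng/mL and 1% KSR (a serum replacement), and received neither LIF nor the inhibitors. All libraries therefore come from 1 cell line, and since several components of the medium, and for EpiLC also the coating, differ between states at once, their parts in a difference cannot be told apart.

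Klf proteins are transcription factors that bind GC-rich and CACCC motifs through zinc fingers at their C-terminal end, and they differ mostly in the N-terminal part that recruits cofactors. Klf2, Klf4 and Klf5 belong to the network that keeps embryonic stem cells in the naive state, and Klf4 is one of the factors used to reprogramme somatic cells; LIF acts on Klf4 through Stat3. Klf6 is a broadly expressed early-response activator, Klf3 is a repressor that recruits CtBP proteins, and Klf9, Klf10, Klf13 and Klf16 belong, with Klf11 and Klf14 outside the 9, to the branch that recruits the Sin3 corepressor.

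The promoters of these genes are shown because the text below turns on which members moved together. Of the 9 genes, 6 had an entry in the RefSeq promoter table (build GRCm38.p6, which matches mm10), and the 250 bases before the RefSeq start are given here 5′ to 3′ on the strand of the gene for 5 of them. The Klf3 window is not printed because 133 of its bases lie inside the annotated gene. Klf2 and Klf4 were lower in both other states than in mESC-2i, Klf6 and Klf9 were highest in mESC-ser, and Klf13 moved little. Capitals mark CACCC, the core that gives the family its binding name, GGGCGG, the GC box, and TTCNNNGAA, the form bound by Stat proteins, each searched on both strands, and matches of different motifs may share bases.
Klf2: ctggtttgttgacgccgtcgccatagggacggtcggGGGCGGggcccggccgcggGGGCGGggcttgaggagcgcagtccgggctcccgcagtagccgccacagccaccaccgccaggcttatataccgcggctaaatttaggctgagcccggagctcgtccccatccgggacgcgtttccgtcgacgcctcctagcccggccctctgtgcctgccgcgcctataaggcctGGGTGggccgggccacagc
Klf4: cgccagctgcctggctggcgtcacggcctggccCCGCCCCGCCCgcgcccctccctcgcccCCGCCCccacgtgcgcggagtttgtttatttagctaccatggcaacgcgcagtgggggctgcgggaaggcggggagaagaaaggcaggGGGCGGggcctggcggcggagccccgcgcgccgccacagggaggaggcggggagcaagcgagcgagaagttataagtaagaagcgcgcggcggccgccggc
Klf6: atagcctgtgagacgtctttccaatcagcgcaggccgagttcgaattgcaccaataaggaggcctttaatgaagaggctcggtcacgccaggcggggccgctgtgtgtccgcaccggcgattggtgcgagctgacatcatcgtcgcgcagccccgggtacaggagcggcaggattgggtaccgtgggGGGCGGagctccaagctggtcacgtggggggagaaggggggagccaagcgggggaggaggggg
Klf9: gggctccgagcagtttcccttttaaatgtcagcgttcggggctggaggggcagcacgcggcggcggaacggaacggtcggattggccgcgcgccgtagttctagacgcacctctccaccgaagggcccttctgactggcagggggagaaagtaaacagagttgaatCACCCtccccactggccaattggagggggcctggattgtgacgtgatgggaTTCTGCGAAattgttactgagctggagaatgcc
Klf13: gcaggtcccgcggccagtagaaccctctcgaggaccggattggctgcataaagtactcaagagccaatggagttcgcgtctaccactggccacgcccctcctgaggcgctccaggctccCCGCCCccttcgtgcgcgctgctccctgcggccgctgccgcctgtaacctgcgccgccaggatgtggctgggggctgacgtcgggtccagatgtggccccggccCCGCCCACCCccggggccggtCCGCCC
These windows lie at chr8:72318812-72319061 (plus strand, Klf2), chr4:55532476-55532725 (minus, Klf4), chr13:5861239-5861488 (plus, Klf6), chr19:23140976-23141225 (plus, Klf9) and chr7:63938916-63939165 (minus, Klf13). The last 29 bases of the Klf2 window and the last 7 of the Klf6 window lie inside the first exon of the GENCODE M21 gene, and the other 3 windows end before it. GGGCGG or its reverse complement occurred 6 times in the Klf3 window, 4 times before Klf4, 3 times before Klf13, 2 times before Klf2, 1 time before Klf6 and not at all before Klf9, whereas 32.7% of all 32851 promoters held at least 1 such match. CACCC occurred 5 times in the Klf3 window, 1 time each before Klf2, Klf9 and Klf13 and not before Klf4 or Klf6, against 52% of all promoters. The only TTCNNNGAA in the 6 windows lay 33 to 25 bases before the Klf9 start, a form found in 7.02% of all promoters. GC content ran from 59.6% for Klf9 to 78.4% for Klf3, above the median of 52.4% over all promoters. Such matches describe letters only, and no binding was measured here.

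The members differ enough in sequence for reads of this length to be assigned to 1 of them. The coding sequences of the members share runs of identical bases of 9 to 24 bases over the 36 pairs, with a median of 12.0, all shorter than the 50-base reads. The longest, between Klf5 (coding bases 1216 to 1239) and Klf9 (559 to 582), is shown as the closest that 2 members come to sharing a read.
Klf5 and Klf9: tcggatgagctgacccgccactac
No stretch of 50 bases in the annotated transcripts was shared between 2 members. Of the 50-base stretches in Klf3 transcripts, 3.48% also occurred in other genes, against at most 0.263% for each other member. Klf3 also has exons that overlap Gm20033 on the opposite strand, and the strand setting of the counting is not given in the sources used here, so that reads of the pair may be mixed. Gm20033 had 4 to 27 counts per library, against 248 to 1652 for Klf3.

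The libraries held 7187576 to 16829549 counts. The naive markers Nanog, Esrrb, Zfp42, Tfcp2l1 and Prdm14 summed to 2483 to 2587 CPM (counts scaled to library size) in the naive state, 1369 to 1410 in serum and 86.7 to 100.5 in EpiLC. The formative markers Fgf5, Otx2, Pou3f1 and Dnmt3b ran the other way, with 71.8 to 82.5, 598 to 712 and 1631 to 1696 CPM. So mESC-2i and EpiLC carried the markers of their label, and mESC-ser, which has no set of its own, lay between. Within the naive set, Zfp42 overlapped between mESC-2i and mESC-ser (means 297 and 349 CPM). Of the shared markers, from mESC-2i to EpiLC, Pou5f1 had means of 882 and 1006 CPM, Sox2 of 473 and 61.7, and Utf1 of 28.2 and 900. Markers of other lineages also differed between states. Primitive endoderm markers summed to 18.4 to 22.8, 32.02 to 34.2 and 6.78 to 8.74 CPM, trophectoderm markers to 101 to 110, 51.9 to 61.1 and 17.7 to 18.0 CPM, neural markers to 146 to 176, 128 to 134 and 35.8 to 36.7 CPM, and mesoderm markers to 87.4 to 107.5, 12.5 to 15.3 and 2.84 to 4.26 CPM, each in the order used above. Single genes carried some of these sums, as Tubb3 (133.3 CPM in mESC-2i) and T (86.5 CPM), and other genes of the same lists ran against them. From mESC-2i to mESC-ser, Pax6 rose from 1.71 to 24.95 CPM and Gata3 from 1.32 to 5.23 CPM on average. Mixl1 was highest in EpiLC, at 1.91 CPM. The fibroblast markers summed to 51.8 to 57.9, 61.7 to 82.8 and 32.4 to 39.97 CPM in the same order of states. Lum was at or under 3 counts in every library. Other genes of this list differed between states in opposite directions. Col1a1 had means of 22.8, 49.1 and 1.48 CPM, and Col1a2, Col3a1 and Pdgfrb were also lowest in EpiLC. Thy1 was highest there, with means of 3.08, 4.37 and 29.5 CPM. The part of these lineage differences in the Klf results was not tested. In bulk RNA, fewer cells that express a gene and less RNA per cell cannot be told apart.

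Levels were compared between genes as CPM per kilobase of exon. In mESC-2i, 2 genes stood above the rest, Klf2 at 163.7 ± 11.6 (SD, n = 3) and Klf4 at 121.7 ± 5.93. Klf16 (22.3 ± 1.16) and Klf5 (22.1 ± 2.49) followed and overlapped, Klf9 (16.4 ± 0.908) and Klf10 (16.05 ± 0.940) overlapped as well, and then came Klf6 (11.3 ± 0.609), Klf13 (9.27 ± 0.113) and Klf3 (4.58 ± 0.113). In mESC-ser the order began in the same way, with Klf2 at 93.5 ± 6.65 and Klf4 at 49.3 ± 6.42, but Klf5 (35.3 ± 2.05) and Klf9 (30.3 ± 1.49) had moved above Klf16 (25.8 ± 2.21). Klf6 (22.3 ± 0.966), Klf10 (15.1 ± 0.147), Klf3 (7.93 ± 0.737) and Klf13 (7.26 ± 0.857) closed the mESC-ser order, the last 2 with overlapping libraries. EpiLC showed another order. Klf16 led at 30.9 ± 1.44, followed by Klf10 (11.4 ± 0.480), Klf2 (7.67 ± 0.469), Klf13 (6.89 ± 0.130), Klf6 (4.82 ± 0.0675), Klf3 (3.01 ± 0.0705), Klf9 (2.70 ± 0.129), Klf5 (0.5995 ± 0.119) and Klf4 (0.413 ± 0.198), with overlap only between Klf5 and Klf4. Of the 36 pairs of members, 34, 35 and 35 had libraries that did not overlap in the naive, serum and EpiLC state. With the length of the longest transcript in place of all exons, 32, 34 and 33 of those pairs kept their order. In mESC-ser, Klf5 (54.8 CPM per kilobase) then ranked above Klf4. In EpiLC, Klf13 (8.11) then ranked above Klf2 (7.67), and Klf3 (6.48) above Klf6 (5.01).

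**Figure D1:**
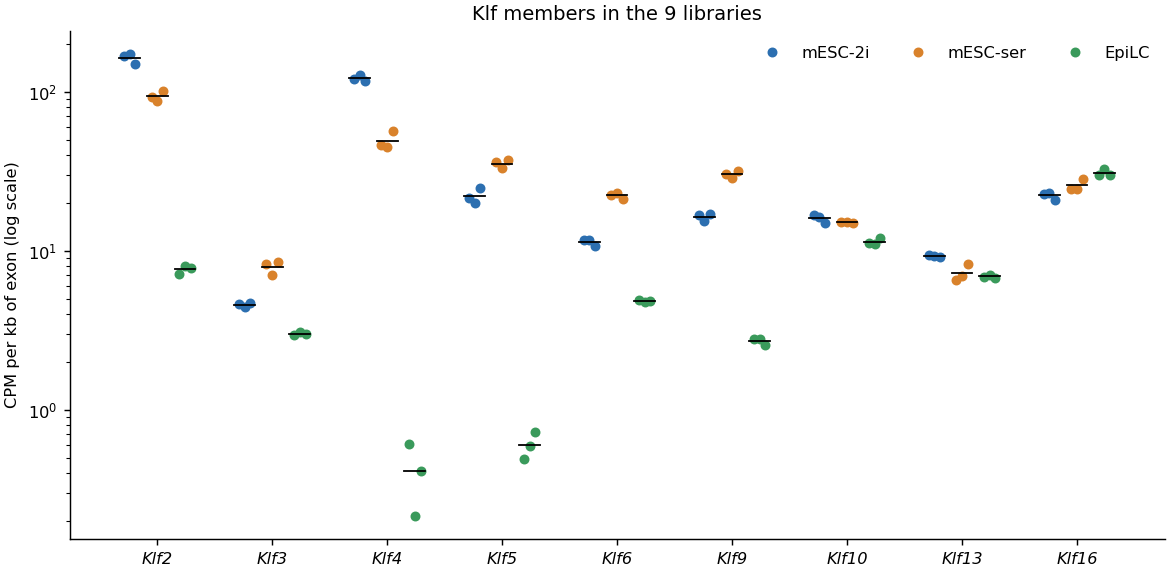
Level of each Klf member in each library (points, CPM per kilobase of exon on a log axis) with the mean of the 3 libraries of a state (bars). Klf4 spans 0.215 to 128.3 CPM per kilobase over the 9 libraries, whereas Klf16 spans 21 to 32.6.

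Summed over all 17 Klf genes, the family stood at 412 ± 16.9 CPM per kilobase in the naive state, 308 ± 18.8 in serum and 76.8 ± 2.01 in EpiLC (SD, n = 3). The 9 members made up 94.0%, 93.1% and 89.1% of these sums. Klf2 held 39.7% of the sum in the naive state, 30.3% in serum and 9.98% in EpiLC, and Klf4 held 29.5%, 16.0% and 0.542%. Klf16 went the other way, from 5.41% through 8.37% to 40.3%, while its own mean level was 22.3, 25.8 and 30.9 CPM per kilobase. The share of Klf10 also rose, from 3.90% through 4.92% to 14.9%, although its own mean level fell (16.05, 15.1 and 11.4 CPM per kilobase). Klf5 and Klf9 had their largest shares in mESC-ser, 11.5% and 9.84%. The largest share belonged to Klf2 in all 6 stem cell libraries and to Klf16 in all 3 EpiLC libraries, and the shares of Klf2, Klf4 and Klf16 did not overlap between states.

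**Figure D2:**
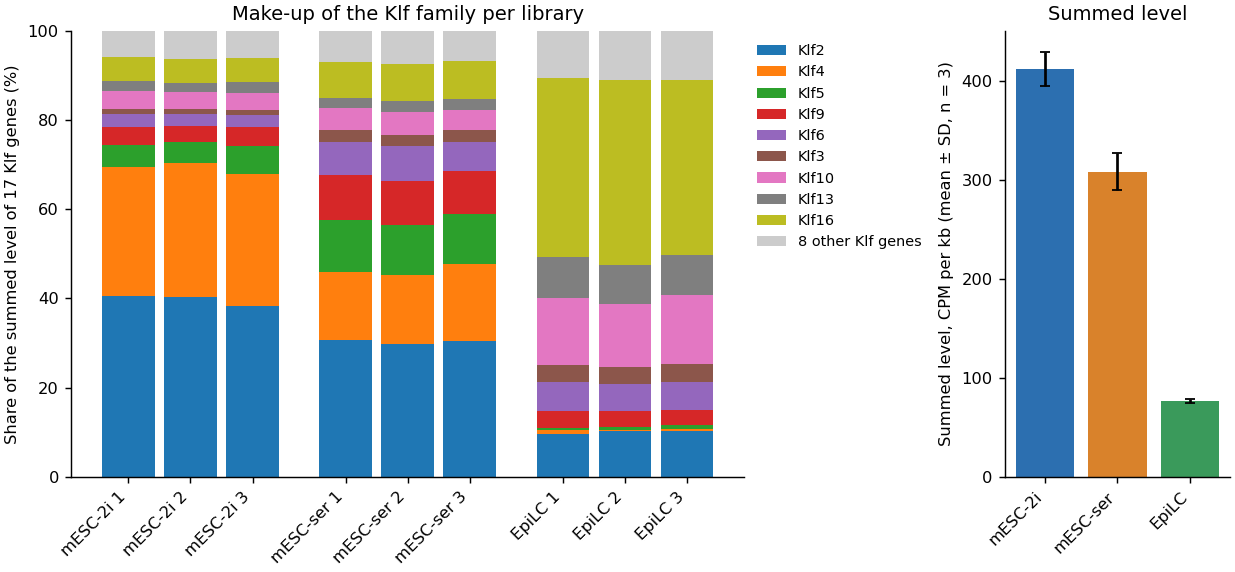
Left, percent of the summed CPM per kilobase of 17 Klf genes that each member holds in each library. Right, the sum itself as mean ± SD over 3 libraries per state, 412, 308 and 76.8 from left to right. Klf2 and Klf4 fill most of the mESC-2i columns and Klf16 the largest part of the EpiLC columns.

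The 3 states were compared in pairs with edgeR's quasi-likelihood test, and a gene was called when its Benjamini-Hochberg adjusted p over all tested genes was under 0.05 and its absolute log2 fold change was over 0.5. All 9 members passed the filter on low counts in each pair. Calls were common, so that each count of members is set beside the rate over all genes. In mESC-ser against mESC-2i, 4 members were higher (Klf3, Klf5, Klf6 and Klf9) and 2 were lower (Klf2 and Klf4), 6 of 9, against a rate of 56.2% of 15728 tested genes, made up of 25.9% higher and 30.3% lower. The median log2 fold change was 0.19 over the members and -0.04 over all tested genes. In EpiLC against mESC-2i, the same 6 members were all lower, where 69.8% of 15378 genes were called and 37.8% were lower, with medians of -1.23 and -0.11. In EpiLC against mESC-ser those 6 were again lower, where 73.3% of 15345 genes were called and 37.8% were lower, with medians of -2.14 and -0.07. Klf10, Klf13 and Klf16 were called in none of the 3 pairs. The pairs share libraries and are not independent. The labels call the libraries biological replicates without saying which steps were separate, so that p-values measure the spread between these libraries.

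Large decreases were less common. In EpiLC against mESC-2i, Klf2, Klf4 and Klf5 were called with a log2 fold change below -3, as were 6.65% of tested genes. In EpiLC against mESC-ser this held for Klf2, Klf4, Klf5 and Klf9, and for 5.29% of tested genes. None of the 9 was called with so large a decrease in mESC-ser against mESC-2i, where 2.64% of tested genes were. The 3 libraries of one state did not overlap with those of the other for 8 of 9 members in mESC-ser against mESC-2i (70.6% of tested genes), for 9 of 9 in EpiLC against mESC-2i (81.8%) and for 8 of 9 in EpiLC against mESC-ser (85.7%). With such rates over all genes, the counts of members without overlap say little about the family.

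**Figure D3:**
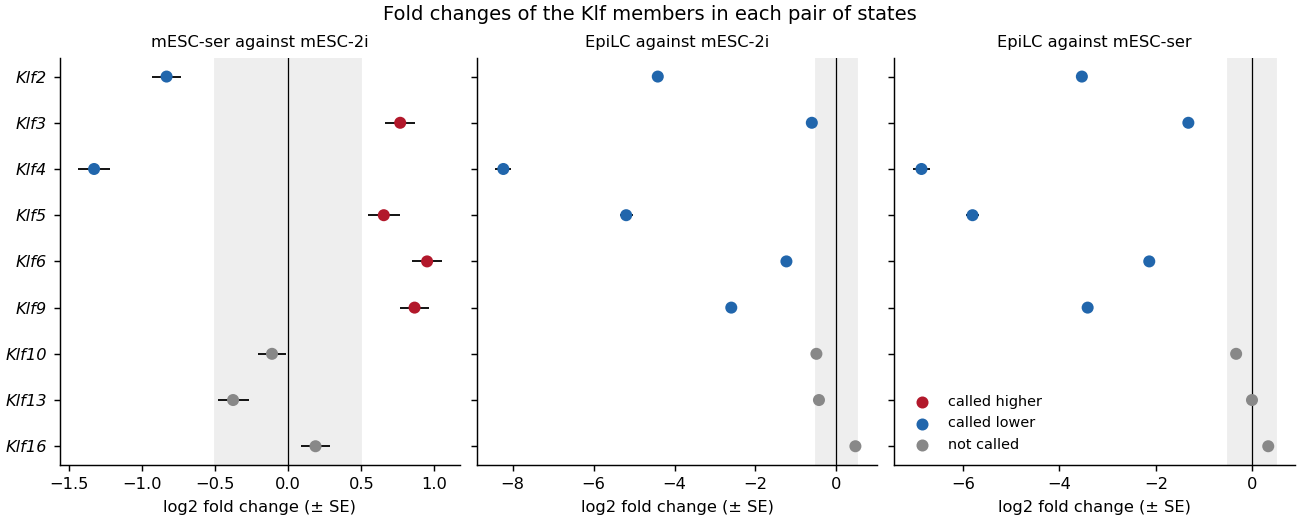
Log2 fold change of each member (point) with its standard error (line) in the 3 pairs of states, from edgeR. The grey band covers an absolute log2 fold change up to 0.5. Red and blue points were called higher and lower, and grey points were not called. Klf3, Klf5, Klf6 and Klf9 lie right of the band in mESC-ser against mESC-2i and left of it in both EpiLC panels.

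Among the members of the naive network, Klf4 changed most. It was measured at 366, 391 and 356 CPM in the 3 mESC-2i libraries, 141, 137 and 173 in mESC-ser, against 1.87, 0.655 and 1.26 in EpiLC. The states did not overlap, and the EpiLC values rest on 14, 6 and 10 counts. Klf4 was 2.51-fold lower in mESC-ser than in mESC-2i (log2 fold change -1.33, SE 0.11, adjusted p = 3.20e-06), and 301-fold lower in EpiLC than in mESC-2i (log2 fold change -8.23, SE 0.20, 95% interval -8.68 to -7.79, adjusted p = 5.42e-10). Only 0.234% of tested genes had a lower log2 fold change than Klf4 in that pair. From mESC-ser to EpiLC the log2 fold change was -6.86 (SE 0.18, 95% interval -7.25 to -6.47, adjusted p = 2.31e-14). With counts this low in EpiLC, the size of the fold is less certain than its direction.

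Klf2, a regulator that is found with Klf4 at many of the same naive genes, had the highest level per kilobase of the family in both stem cell states. In CPM, which is not corrected for length, its libraries gave 312, 318 and 278 CPM in mESC-2i, 171, 161 and 186 in mESC-ser, against 13.2, 14.9 and 14.4 in EpiLC, again without overlap. It was 1.78-fold lower in mESC-ser than in mESC-2i (log2 fold change -0.83, SE 0.10, adjusted p = 4.38e-05) and 21.3-fold lower in EpiLC than in mESC-2i (log2 fold change -4.41, SE 0.11, adjusted p = 6.19e-10). From mESC-ser to EpiLC its log2 fold change was -3.54 (SE 0.10, adjusted p = 2.93e-14), and -4.24 with a correction for gene length and GC content. Unlike Klf4, Klf2 kept 99 to 136 counts in each EpiLC library. Per length it ranked 3 of the 9 members there with all exons, and 4 with the longest transcript, below Klf13.

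Klf5, the remaining factor of that network, did not follow Klf2 and Klf4 in serum. It was measured at 111, 104 and 129 CPM in mESC-2i, 187, 172 and 193 in mESC-ser, against 2.53, 3.06 and 3.77 in EpiLC, where it had 19 to 30 counts. The mESC-ser libraries were all above the mESC-2i libraries, and all EpiLC libraries far below both. Klf5 rose 1.57-fold from mESC-2i to mESC-ser (log2 fold change 0.65, SE 0.11, 95% interval 0.41 to 0.90, adjusted p = 0.000410) and was 36.6-fold lower in EpiLC than in mESC-2i (log2 fold change -5.20, SE 0.16, adjusted p = 1.84e-09). Against mESC-ser the EpiLC log2 fold change was -5.80 (SE 0.13, adjusted p = 5.13e-15), and 0.723% of tested genes had a lower value.

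Klf6, the early-response activator, gave 51.1, 51.6 and 46.7 CPM in mESC-2i, 98.5, 101.6 and 93.2 in mESC-ser, against 21.5, 20.9 and 21.2 in EpiLC. All mESC-ser libraries were highest and all EpiLC libraries lowest. It rose 1.93-fold from mESC-2i to mESC-ser (log2 fold change 0.95, SE 0.10, adjusted p = 1.62e-05). It was 2.35-fold lower in EpiLC than in mESC-2i (log2 fold change -1.23, SE 0.10, adjusted p = 1.10e-06) and 4.399-fold lower than in mESC-ser (log2 fold change -2.14, SE 0.09, adjusted p = 1.54e-12). With the longest transcript in a correction for length and GC content, the log2 fold changes were smaller and still called, -0.70 and -1.41.

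Klf3, the CtBP-recruiting repressor, had the same order of states as Klf6 with smaller steps. Its libraries gave 52.0, 50.1 and 52.5 CPM in mESC-2i, 92.6, 79.7 and 95.1 in mESC-ser, against 33.0, 34.6 and 33.9 in EpiLC. The log2 fold changes were 0.77 in mESC-ser against mESC-2i (SE 0.10, adjusted p = 8.99e-05), -0.61 in EpiLC against mESC-2i (SE 0.09, adjusted p = 0.000118) and -1.33 in EpiLC against mESC-ser (SE 0.09, adjusted p = 5.73e-10). All 3 calls were lost when counts were corrected for gene length and GC content, where the values were 0.27, 0.18 and -0.09. With the length of the longest transcript in that correction they were 0.47, 0.08 and -0.38, again not called. The exons of Klf3 together cover 11243 bases, against 5221 in its longest transcript.

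Klf9, a member of the Sin3-binding branch known as a target of thyroid hormone and glucocorticoid, followed Klf5 and Klf6 rather than the other members of its branch. It was measured at 80.3, 73.9 and 82.3 CPM in mESC-2i, 146, 139 and 153 in mESC-ser, against 13.3, 13.4 and 12.3 in EpiLC, with no overlap between states. It rose 1.82-fold from mESC-2i to mESC-ser (log2 fold change 0.86, SE 0.10, adjusted p = 2.42e-05). It was 6.05-fold lower in EpiLC than in mESC-2i (log2 fold change -2.60, SE 0.11, adjusted p = 1.02e-08) and 10.7-fold lower than in mESC-ser (log2 fold change -3.42, SE 0.10, adjusted p = 3.06e-14). With the longest transcript in the correction for length and GC content these were -1.98 and -2.75, still called.

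Klf10, Klf13 and Klf16, the other listed members of the Sin3-binding branch, were called in no pair, whereas Klf11, a relative in that branch outside the 9, was called lower in EpiLC against mESC-2i (-1.12, SE 0.15, adjusted p = 4.87e-05) and against mESC-ser (-0.80, SE 0.13, adjusted p = 3.29e-05). Klf10, first described as an early gene induced by TGF-beta, gave 70.6, 67.9 and 62.8 CPM in mESC-2i, 63.6, 63.3 and 62.4 in mESC-ser, against 46.9, 46.2 and 50.0 in EpiLC. The stem cell states overlapped, and the log2 fold change between them was -0.11 (95% interval -0.33 to 0.10, adjusted p = 0.330). The EpiLC libraries were below all others, with log2 fold changes of -0.49 against mESC-2i (95% interval -0.70 to -0.29, adjusted p = 0.000546) and -0.34 against mESC-ser (95% interval -0.51 to -0.16, adjusted p = 0.00122), both past the adjusted p and under the fold threshold. With the correction for length and GC content neither passed the adjusted p, at -0.11 (adjusted p = 0.252) and -0.064 (adjusted p = 0.379).

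Klf13 gave 70.8, 69.4 and 69.3 CPM in mESC-2i, 49.6, 52.5 and 61.9 in mESC-ser, against 51.6, 53.0 and 51.1 in EpiLC. The mESC-2i libraries were highest, and those of mESC-ser and EpiLC overlapped. The log2 fold changes were -0.38 in mESC-ser against mESC-2i (95% interval -0.61 to -0.14, adjusted p = 0.00936), -0.43 in EpiLC against mESC-2i (95% interval -0.62 to -0.24, adjusted p = 0.000788) and -0.0061 in EpiLC against mESC-ser (95% interval -0.20 to 0.19, adjusted p = 0.952). With the correction for length and GC content, Klf13 was instead called higher in EpiLC than in mESC-ser, at 0.52.

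Klf16 was the only member with its lowest mean in mESC-2i and its highest in EpiLC. Its libraries gave 60.7, 62.1 and 56.2 CPM in mESC-2i, 65.5, 65.8 and 75.9 in mESC-ser, against 80.5, 87.1 and 80.5 in EpiLC, with no overlap between states. The log2 fold changes were 0.19 in mESC-ser against mESC-2i (95% interval -0.04 to 0.41, adjusted p = 0.128), 0.47 in EpiLC against mESC-2i (95% interval 0.27 to 0.67, adjusted p = 0.000624) and 0.33 in EpiLC against mESC-ser (95% interval 0.15 to 0.51, adjusted p = 0.00166). The first did not pass the adjusted p, and the others did not pass the fold threshold. In EpiLC against mESC-2i the value was 0.13 with scaling to total counts (adjusted p = 0.185). The direction in EpiLC against mESC-ser was lost with scaling to total counts (-0.0095) and with the correction for length and GC content (-0.15).

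How far the small changes depend on scaling was followed for all members. Scaling to total counts moved the median log2 fold change of all tested genes from -0.11 to -0.45 in EpiLC against mESC-2i and from -0.07 to -0.41 in EpiLC against mESC-ser, and the correction for length and GC content moved them to 0.18 and 0.15. The share of calls that were higher moved with it, from 45.9% to 33.7% and 55.9% in EpiLC against mESC-2i, and from 48.4% to 37.4% and 56.0% in EpiLC against mESC-ser. Klf2, Klf4, Klf5, Klf6 and Klf9 kept their direction and their call in all 3 pairs under every alternative scaling, filter, tool and left-out library that could be computed for them. Klf10, Klf13 and Klf16 lay within the range over which the scalings differ.

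**Figure D4:**
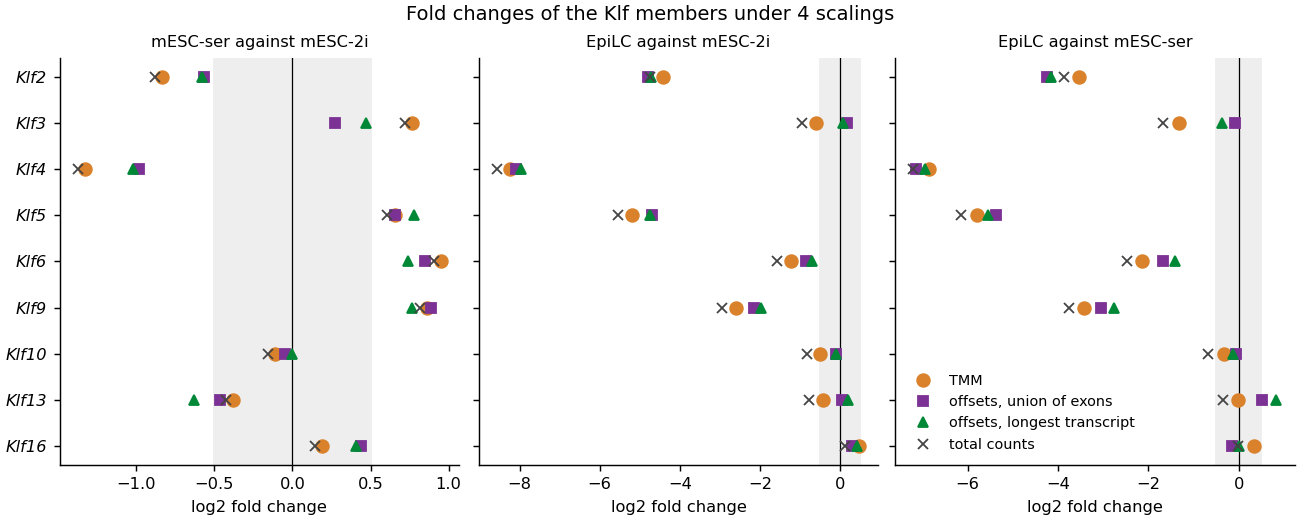
Log2 fold change of each member with the trimmed mean of M values (TMM, circles), with offsets for length and GC content from the union of exons (squares) or the longest transcript (triangles), and with total counts (crosses). The grey band covers an absolute value up to 0.5. Symbols of Klf3 lie partly inside the band in every panel and those of Klf13 lie on both sides of 0 in both EpiLC panels, whereas those of Klf2, Klf4, Klf5, Klf6 and Klf9 stay outside the band.

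Each member was then set beside the gene with the most similar profile over the 9 libraries, by the root mean square (RMS) difference of centred log2 CPM among 9136 candidates. For Klf2 the nearest were Frmd4b (RMS 0.207) and Mark4 (0.215), for Klf4 Jam2 (0.352) and Mras (0.441), and for Klf5 Mme (0.177) and Tgm1 (0.342). For Klf6 they were Glns-ps1 (0.061), a pseudogene whose reads may belong to its parent gene, and Esco1 (0.089), and for Klf3 Tlk1 (0.064) and Ap2b1 (0.074). For Klf9 they were F2r (0.132) and Lifr (0.154), the receptor of LIF, which had mean levels of 74.1, 120.6 and 9.98 CPM from the naive through the serum state to EpiLC. For the weakly changing members they were Zfp2 (0.056) and Trpc4ap (0.060) for Klf10, Sppl3 (0.051) and Ptk7 (0.068) for Klf13, and Rcc2 (0.048) and Ears2 (0.053) for Klf16. Among the 9 members, Klf10 and Klf13 (0.176) and Klf3 and Klf6 (0.362) were nearest to each other. Klf4 lay far from all members, 1.30 from its nearest, Klf5. The RMS difference grows with the size of a gene's changes, so small values for flat genes and the large one for Klf4 partly follow from the measure. These are descriptions over libraries that fall into 3 states.

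Of the other 8 Klf and 9 Sp genes, relatives with the same type of zinc fingers, 13, 12 and 13 could be tested in the 3 pairs. In mESC-ser against mESC-2i, 5 were higher and 5 lower, where 56.2% of all tested genes were called, 25.9% higher and 30.3% lower. Their median log2 fold change was -0.27, against -0.04 over all tested genes. The largest were Klf12 (2.62, SE 0.24, adjusted p = 6.05e-06) and Klf7 (1.86, SE 0.16, adjusted p = 3.92e-06), and in the other direction Sp5 (-3.83, SE 0.13, adjusted p = 1.47e-08), a target of Wnt signalling, and Sp6 (-1.94, SE 0.13, adjusted p = 7.64e-07). Sp5 stood at 148, 154 and 138 CPM in mESC-2i and at 8.81, 11.1 and 11.6 in mESC-ser. Per length its mESC-2i mean of 69.9 CPM per kilobase was above those of all members but Klf2 and Klf4.

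In EpiLC against mESC-2i, 1 was higher and 10 were lower, where 69.8% of all tested genes were called and 37.8% were lower, with medians of -1.19 for the list and -0.11 over all. In EpiLC against mESC-ser 2 were higher and 11 lower, where 73.3% were called and 37.8% were lower, with medians of -1.41 and -0.07. Klf7 was the one that rose from mESC-2i to EpiLC (log2 fold change 1.30, SE 0.16, adjusted p = 2.22e-05). Sp5 was at or under 3 counts in every EpiLC library, which makes it at least 367-fold lower than in mESC-2i and at least 26.2-fold lower than in mESC-ser, taking 3 counts per library as the floor. Klf8, a CtBP-recruiting relative of Klf3, fell by 3.10 on the log2 scale from mESC-2i to EpiLC (adjusted p = 1.06e-08). Klf12, of the same branch, fell by 4.22 from mESC-ser (adjusted p = 3.75e-10). As Klf12 had only 3 to 6 counts per EpiLC library, the size of its fold is less certain than its direction. Klf1 (1.77, adjusted p = 0.000546) and Sp6 (0.98, adjusted p = 8.85e-06) were higher in EpiLC than in mESC-ser, Klf1 from a mean of 0.456 CPM.

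**Figure D5:**
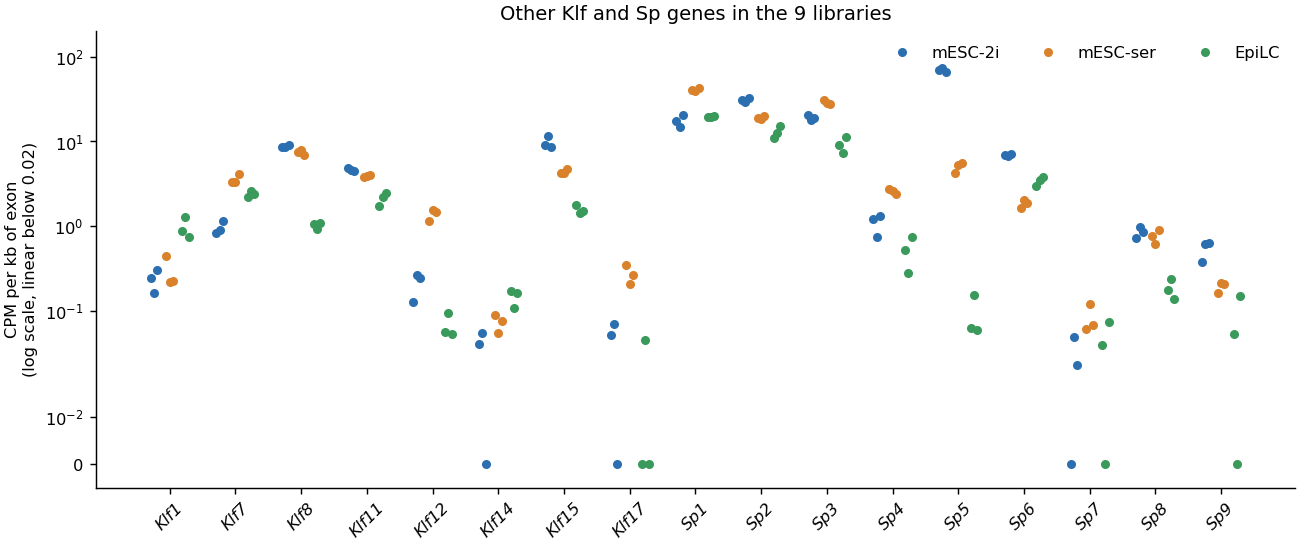
Level of the 8 other Klf and 9 Sp genes in each library (CPM per kilobase of exon, log scale that is linear below 0.02). Sp5 falls from 69.9 CPM per kilobase on average in mESC-2i to 4.99 in mESC-ser and 0.0931 in EpiLC, and Klf7 and Klf12 are highest in mESC-ser.

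Among 21 cofactors and regulators of Klf proteins, 7 were higher and 0 lower in mESC-ser against mESC-2i (median log2 fold change 0.39, all tested genes -0.04), 2 higher and 9 lower in EpiLC against mESC-2i (median -0.44, all -0.11), and 4 higher and 13 lower in EpiLC against mESC-ser (median -0.95, all -0.07). Over all tested genes 56.2%, 69.8% and 73.3% were called in these pairs. Split by direction, 25.9%, 32% and 35.5% of all tested genes were higher, and 30.3%, 37.8% and 37.8% were lower. The ubiquitin ligase subunit Fbxo32 (3.17, SE 0.27, adjusted p = 3.84e-06) and the acetyltransferase Ep300 (1.89, SE 0.18, adjusted p = 9.42e-06) led in mESC-ser against mESC-2i, Fbxo32 from a mean of 0.480 CPM. In EpiLC against mESC-2i the kinase Mapk3 rose (1.16, SE 0.10, adjusted p = 2.23e-06), as did Fbxo32 (2.28, SE 0.35, adjusted p = 0.000126). Stat3 and Il6st, which carry the LIF signal, fell by 3.78 and 3.09 on the log2 scale (adjusted p = 2.37e-09 and 5.54e-09). In EpiLC against mESC-ser, Crebbp fell by 4.73 and Stat3 by 3.54 on that scale (adjusted p = 1.28e-13 and 1.13e-13), whereas Mapk3 (1.12, adjusted p = 1.41e-09) and the corepressor Sin3b (1.01, adjusted p = 5.90e-09) rose.

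Among 10 partners of the Klf genes in the naive network, 3 were higher and 5 lower in mESC-ser against mESC-2i (median -0.28, all tested genes -0.04), 9 were lower in EpiLC against mESC-2i (median -5.10, all -0.11) and 10 were lower in EpiLC against mESC-ser (median -4.85, all -0.07). Over all tested genes 25.9% were higher and 30.3% lower in the first pair, and 37.8% were lower in each EpiLC pair. These genes were listed with their naive role known, so that their direction in EpiLC is no independent evidence. Like the Klf members, they split in mESC-ser against mESC-2i. Prdm14 (-2.10, SE 0.14, adjusted p = 7.39e-07) and Tfcp2l1 (-1.58, SE 0.13, adjusted p = 2.19e-06) were lower, and Sall4 (1.36, SE 0.11, adjusted p = 1.99e-06) and Nr0b1 (0.98, SE 0.13, adjusted p = 7.87e-05) were higher. In EpiLC, Prdm14 was at or under 3 counts in every library, at least 124-fold lower than in mESC-2i and at least 29.4-fold lower than in mESC-ser. Tfcp2l1 fell by 7.55 on the log2 scale from mESC-2i (adjusted p = 4.15e-10). On the same scale, Tbx3 fell by 6.26 from mESC-ser (adjusted p = 7.29e-15) and Nr5a2 fell by 6.21 (adjusted p = 4.12e-14). Their EpiLC libraries held only 10 to 12 counts of Tbx3 and 4 to 9 of Nr5a2, which limits the size of these folds.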

How the data were processed

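Poly-A RNA of the 9 E14 libraries was sequenced as 50-base single-end reads. Per the labels, the authors used FastQC, Trim Galore (version 0.6.6), HISAT2 (version 2.2.1, build mm10) and featureCounts from Subread (version 2.0.1). The deposited values are raw counts per Ensembl gene. Annotation release, strandedness and handling of multi-mapping reads are not given in the sources used here. Columns were matched to samples by name, with SL read as the initials of serum and LIF.

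For each pair, the 6 libraries entered a separate edgeR fit (version 4.0.16, R 4.3.3) with filterByExpr, TMM scaling, the quasi-likelihood F-test and Benjamini-Hochberg adjustment. Calls needed adjusted p below 0.05 and a log2 fold change beyond 0.5 in size. Standard errors and 95% intervals follow from the F statistic and its degrees of freedom. Levels are CPM with TMM over the 9 libraries, per kilobase of GENCODE M21 exons (GRCm38), which matched 36429 IDs (95.1%); unmatched IDs held 0.596% to 0.827% of counts. The fits were tested on simulated data. No 2 replicates were within sampling noise of each other (chi-square per degree of freedom 1.61 to 28.3).

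The members and lists were chosen with earlier results of these data known. All 9 members are named. Of each other list, at most the 2 called genes with the largest positive and the 2 with the largest negative log2 fold change are named. The exceptions were Prdm14 (EpiLC against mESC-ser) and Klf11 (both EpiLC pairs), which were added after their values were seen. For each member, the 2 nearest profiles were taken among genes with a mean of at least 10 CPM and a symbol that is no clone name.

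Replicate numbers are shared between states, and the labels do not say what they mark. Deviations of libraries with the same number correlated at 0.129 to 0.345 between mESC-ser and mESC-2i. Libraries of these states with different numbers correlated at -0.278 to 0.146, so the ranges overlapped and a pairing is possible but not clear. For the same number the values were 0.0195 to 0.112 (EpiLC and mESC-2i) and 0.0165 to 0.0335 (EpiLC and mESC-ser), and these were not taken as paired. The reported fits carried no replicate block in any pair, and the block was run as an alternative. Alternatives were other scalings (RLE, upper quartile, total counts), no filter or 10 counts in every library, DESeq2 (version 1.42.0), all 9 libraries in 1 fit, a replicate block, offsets for length and GC content (natural splines with 5 degrees of freedom), other thresholds and leaving out each library. Offsets with the longest transcript were added after seeing the data. Intervals of fold changes carry the spread between libraries, and floors of 3 counts cover counting error only.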

Additional observations from a re-analysis of the deposited data

Results flagged for a closer look

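For 4 members the calls against mESC-2i had opposite signs in mESC-ser and in EpiLC. The difference between those states is EpiLC against mESC-ser, fitted with edgeR (n = 3 libraries per state). As the 4 were picked by these opposite calls, the direction of that difference followed from the choice. Its adjusted p therefore adds no independent support. The log2 fold changes were 0.65 and -5.20 for Klf5, with -5.80 for the difference (adjusted p = 5.13e-15), and 0.86 and -2.60 for Klf9, with -3.42 (adjusted p = 3.06e-14). They were 0.95 and -1.23 for Klf6, with -2.14 (adjusted p = 1.54e-12), and 0.77 and -0.61 for Klf3, with -1.33 (adjusted p = 5.73e-10). Every mESC-ser library was above and every EpiLC library below the range of the mESC-2i libraries for each of these genes. Klf5, Klf6 and Klf9 kept these calls under all alternatives other than the stricter fold threshold of 1, and Klf3 lost all of them with the correction for length and GC content (0.27, 0.18 and -0.09). Both comparisons use the mESC-2i libraries as their base, and the parts of medium and coating cannot be told apart.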

How the results depend on the processing

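Over the 27 fold changes of the members, 457 alternative values were computed, of which 421 kept the direction and the side of the call, 14 passed it, 6 no longer did and 16 changed sign. Klf2, Klf4, Klf5, Klf6 and Klf9 had none of these changes, though their sizes moved, as for Klf6 in EpiLC against mESC-ser (-2.14, and -1.41 with offsets from the longest transcript). Klf4 could not be tested in the EpiLC pairs with at least 10 counts in every library. With the replicate block alone, 8953, 10759 and 11207 genes were called in the 3 pairs and no call of a member changed. Changes of sign were as follows. For Klf3 in EpiLC against mESC-2i, the values were 0.18 with offsets for length and GC content, 0.18 with those and the replicate block, and 0.081 with the longest transcript. For Klf13 in that pair they were 0.063, 0.065 and 0.21. For Klf13 in EpiLC against mESC-ser they were 0.52, 0.52 and 0.84 (called), 0.021 with RLE, and -0.075 to 0.085 when 1 library was left out. For Klf16 in EpiLC against mESC-ser they were -0.15 with offsets, -0.15 with offsets and the block, and -0.0095 with total counts. Klf13 was also called lower in mESC-ser than in mESC-2i with the longest transcript (-0.63). In EpiLC against mESC-2i, Klf10 (-0.51 to -0.83) and Klf16 (0.50 to 0.55) passed the fold threshold under some settings, whereas with offsets Klf10 (-0.11), and with total counts Klf16 (0.13), no longer passed the adjusted p. Members called ranged from 6 to 8 when 1 library was left out, against 6 to 6 in the other pairs. With an absolute log2 fold change over 1, mESC-ser against mESC-2i had 4935 of 15728 tested genes called, 1 member (Klf4), 4 cofactors and regulators and 5 naive partners. The same threshold left 6 cofactors and regulators in EpiLC against mESC-2i and 8 other Klf and Sp genes in EpiLC against mESC-ser. With the adjusted p alone, 14 cofactors and regulators were called in mESC-ser and 17 in EpiLC, each against mESC-2i. Apart from the 4935 genes above, no share over all tested genes is set beside these counts, so they are not read as results about the lists. The cause of these changes was not tested. Depth limits the EpiLC values of Klf4 (6 to 14 counts) and Klf5 (19 to 30).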
